A study of Homo sapiens with 12 samples.

Results

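Talazoparib added to decitabine was examined in EGI-1 cells by setting the 2 libraries of cells given both drugs (the combination) against the 2 libraries of cells given decitabine alone, so 4 of the 12 libraries of the series carry the comparison. EGI-1 is an established human line of cholangiocarcinoma, the cancer of the bile ducts, labelled wild type. The cells were plated a day before treatment and kept for 72 h with DMSO vehicle, 0.5 µM decitabine, 200 nM talazoparib or both drugs at these doses, with 2 libraries in each of the 4 arms. All 8 EGI-1 libraries entered a single model, so that the spread between libraries was estimated from every arm, and the 4 libraries of the second cell line were not used here. The names of the talazoparib libraries carry a figure other than 200 nM, and the dose is given here as the labels state it. The labels do not say whether the 2 libraries of an arm came from separate cultures, so the p-values measure the spread between these libraries, which may be technical.

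Decitabine is a cytidine analogue that is built into DNA, where it traps and depletes the DNA methyltransferases. Talazoparib inhibits the poly(ADP-ribose) polymerases PARP1 and PARP2 and holds them on damaged DNA, which stalls replication forks. Much of the response of cells to such drugs is read from genes of the S phase of the cell cycle. Chief among these are the replication-dependent histone genes, whose messages are made while DNA is copied, end in a stem-loop in place of a poly(A) tail, and are lost quickly when replication stops. Other readouts are p21 (CDKN1A), lamin B1, secreted cytokines and the interferon-stimulated genes, and all were measured here.

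The 8 EGI-1 libraries held 23139065 to 33181930 counts. Of the biliary and epithelial markers, 8 of 8 passed the filter on low counts, while 1 of 7 hepatocyte, 1 of 7 fibroblast, 3 of 5 endothelial and 3 of 7 leukocyte markers did. Of these, 1 biliary marker (SOX9, 0.49) and 1 endothelial marker (VWF, 1.30) were called higher in the combination. The leukocyte markers summed to 24.8 CPM (counts scaled to a common library size) in combination replicate 2 and to 3.93 to 6.55 CPM in the other 7 libraries. In these leukocyte markers the second combination library stood apart from the other 7 libraries. In a list of 30 T lymphocyte genes chosen after this was seen, the combination library of replicate 2 had more than 3 counts for 28 genes, against 12 to 19 in the other 7 libraries. PTPRC (CD45) had 381 counts there and 1 to 7 elsewhere, CD3E had 148 against 0 to 4, and CD3G had 34 against 0 in each of the other libraries. With the 4 genes that had at least 68 counts in every EGI-1 library left out (IL7R, TCF7, BCL11B and LCK), the other 26 summed to 72.9 CPM in this library and to 3.81 to 6.81 in the remaining ones, with 5.85 in combination replicate 1 and 4.54 and 4.39 under decitabine. Only THEMIS of the 30 was at 0 in that library. The part of these transcripts in the results was not tested, and values without combination replicate 2 are given beside the named genes whose calls were lost.

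Talazoparib on top of decitabine moved many genes by small amounts. Of 22406 genes tested, 1720 were called at a Benjamini-Hochberg adjusted p under 0.05 in edgeR's quasi-likelihood test (7.68% of genes), of which 990 rose (4.42%) and 730 fell (3.26%). The median change was 0.44 on the log2 scale among the genes that rose and -0.42 among those that fell. Changes over 2-fold were seen for 135 genes that rose and 95 that fell, and 49 of these 95 were replication-dependent histones. In each of the 1720 genes, both combination libraries lay on the same side of both decitabine libraries. The genes were chosen by p-values from these same libraries, so this separation lends the calls no further support. The same holds for called genes described below as not overlapping or far apart. The number of calls leaned on each combination library. Without combination replicate 2, 853 genes were called, 802 of the 1720 were still among them (491 of the 990 that rose), and all 1720 kept their sign. Without combination replicate 1, 1105 genes were called, and in a fit of the 4 combination and decitabine libraries alone 963 were. Of the 990 genes that rose, 27 stood more than 1.5 times higher in combination replicate 2 than in replicate 1. By the same factor, 5 stood lower. Of the 730 that fell, these numbers were 9 and 6, and the share over all genes tested was not counted. LCK alone of the T lymphocyte list was called, but the filter on low counts needs 2 libraries above its cutoff. Genes with counts in combination replicate 2 alone, such as CD3G, were therefore not tested, and the single call says nothing of them.

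**Figure D1:**
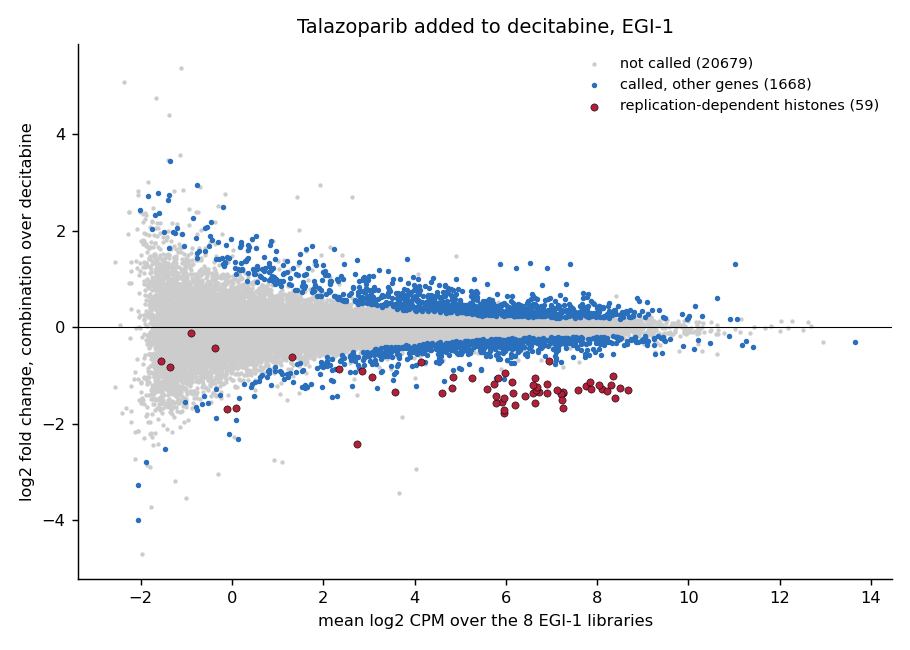
Log2 fold change of the combination over decitabine (vertical) against the mean log2 CPM over the 8 EGI-1 libraries (horizontal), with 1 point per gene. Genes not called are grey, called genes other than histones are blue, and the 59 replication-dependent histone genes, red, all lie below 0.

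The strongest and most uniform change was in the replication-dependent histone genes. These genes sit in clusters, mainly on chromosome 6, and their promoters share short elements. The 300 bases around the start (250 before and 50 after, from RefSeq, build GRCh38.p14) are shown for the member with the highest count of the H1, H2B and H3 classes that fell together, and beside them for MCM6, the replication gene with the smallest p-value, and SERPINB2, a protease inhibitor gene that rose. Capitals mark every match, on either strand, of CCAAT (the CCAAT box), of TATAAA (the TATA box), of ATTTGCAT (the octamer), of AAACACA (the H1 box) and of TGANTCA (the AP-1 consensus). They also mark the E2F-type strings TTTCGCGC or TTTGGCGC or TTTCCCGC, which can overlap each other. H1-2 held CCAAT and AAACACA, H3C2 held CCAAT and TATAAA, and H2BC12 held both of those with ATTTGCAT and an E2F-type string. MCM6 held E2F-type strings and CCAAT, and SERPINB2 held TGANTCA and TATAAA.
H1-2 (chr6:26056421-26056720, minus strand): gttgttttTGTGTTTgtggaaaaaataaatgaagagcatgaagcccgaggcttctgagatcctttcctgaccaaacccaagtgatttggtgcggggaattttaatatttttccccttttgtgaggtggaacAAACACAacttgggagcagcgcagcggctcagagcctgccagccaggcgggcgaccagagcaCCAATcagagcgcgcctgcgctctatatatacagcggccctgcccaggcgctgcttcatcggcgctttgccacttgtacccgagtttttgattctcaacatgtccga
H2BC12 (chr6:27146809-27147108, minus strand): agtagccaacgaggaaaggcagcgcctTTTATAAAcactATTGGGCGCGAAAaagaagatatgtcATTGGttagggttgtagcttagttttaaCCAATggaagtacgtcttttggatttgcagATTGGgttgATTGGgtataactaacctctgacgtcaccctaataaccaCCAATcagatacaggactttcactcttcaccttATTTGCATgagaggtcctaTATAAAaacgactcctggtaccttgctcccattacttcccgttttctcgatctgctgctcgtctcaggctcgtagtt
H3C2 (chr6:26032050-26032349, minus strand): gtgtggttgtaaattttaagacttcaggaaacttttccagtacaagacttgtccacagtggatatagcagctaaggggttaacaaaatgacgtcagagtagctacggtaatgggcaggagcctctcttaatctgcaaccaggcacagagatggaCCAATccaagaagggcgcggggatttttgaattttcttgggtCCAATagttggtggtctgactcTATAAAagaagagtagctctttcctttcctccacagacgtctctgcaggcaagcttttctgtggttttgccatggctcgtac
MCM6 (chr2:135876394-135876693, minus strand): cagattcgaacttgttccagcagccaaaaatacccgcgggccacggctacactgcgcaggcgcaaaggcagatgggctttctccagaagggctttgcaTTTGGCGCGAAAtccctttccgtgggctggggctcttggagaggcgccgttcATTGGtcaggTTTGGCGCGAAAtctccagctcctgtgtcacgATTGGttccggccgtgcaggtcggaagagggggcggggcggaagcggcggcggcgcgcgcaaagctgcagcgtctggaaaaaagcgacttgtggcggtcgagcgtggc
SERPINB2 (chr18:63887455-63887754, plus strand): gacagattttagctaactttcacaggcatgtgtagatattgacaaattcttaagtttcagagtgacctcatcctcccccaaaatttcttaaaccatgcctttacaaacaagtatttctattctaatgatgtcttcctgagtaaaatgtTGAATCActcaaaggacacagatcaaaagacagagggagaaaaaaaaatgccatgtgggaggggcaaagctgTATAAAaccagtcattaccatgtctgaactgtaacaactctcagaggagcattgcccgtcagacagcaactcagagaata

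A promoter entry was found for 54 of the 59 histone genes tested. CCAAT was present in 45 of them (83.3%), against 35.7% of all 27305 promoters of this length, and in every promoter of the H1, H2A, H2B and H3 classes that had an entry but in 3 of 12 of class H4. TATAAA was in 66.7% of the histone promoters, 11.95% of all promoters and 6.68% of those of tested genes. The octamer ATTTGCAT was in 10 of 12 H2A and 12 of 16 H2B promoters (83.3% and 75.0%), against 1.80% of all promoters, and AAACACA was in 5 of 5 H1 promoters against 5.76%. Of the replication genes with an entry, 21 of 50 (42.0%) held an E2F-type string, against 2.79% of all promoters, 4.24% of the 12446 promoters of tested genes, and 12 of 54 histone promoters (22.2%), most of them in classes H2A (41.7%) and H2B (37.5%). CCAAT was in 56.0% of the replication promoters, so both strings occurred in both groups. TGANTCA was in 6 of 11 promoters of the plasminogen activation genes (54.5%) and in 7.76% of all promoters. It was in 8.04% of the 746 entries of genes that rose and in 5.25% of the promoters of tested genes. CCAAT was in 69.2% of the promoters of cholesterol and fatty acid synthesis genes. Among the 506 entries of other genes that fell, 36.2% held CCAAT, against 36.3% for tested genes, and 6.32% held an E2F-type string. These are matches of letters in a fixed window, and binding was not measured.

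Of 67 replication-dependent histone genes listed, 59 were tested, 52 fell and 0 rose, with a median log2 change of -1.28 and a range of -2.41 to -0.13. The median over all genes tested was -0.01. All 5 classes of histone had members that fell. The linker histones H1 had a median of -1.27 (4 of 5 fell), and the core histones had -1.24 for H2A (11 of 13), -1.36 for H2B (16 of 16), -1.30 for H3 (9 of 11) and -1.13 for H4 (12 of 14). The 7 members that were not called (H1-1, H2AC7, H2AC17, H3C14, H3C15, H4C4 and H4C11) also had values below 0, and their highest value in the 4 libraries was 10.7 CPM. The medians of the same-numbered pairs of libraries were -1.33 and -1.24. Without combination replicate 2 the median was -1.37 and 51 genes fell. Histone genes have near-identical coding sequences, so the reads of single members are less certain than the sum.

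H3C2, a core histone H3 gene and the member with the highest count, stood at 545 and 590 CPM under decitabine and at 217 and 244 CPM in the combination. Both combination libraries were well below both decitabine libraries, a log2 change of -1.30 (SE 0.07, adjusted p = 1.60e-09). H1-5, a linker histone, had 456 and 493 CPM under decitabine and 172 and 174 CPM in the combination (log2 change -1.46, SE 0.06, adjusted p = 1.00e-10). H1-2 went from 472 and 526 CPM to 204 and 211 CPM (-1.26, SE 0.06). H2BC12, whose promoter is shown above, went from 437 and 396 CPM to 200.0 and 214 CPM (-1.01). The largest drop was in H2BC14, a histone H2B gene of lower count, from 13.9 and 10.3 CPM to 2.32 and 2.24 CPM (-2.41). H3C12 followed, with 91.2 and 92.6 CPM under decitabine and 24.97 and 28.34 CPM in the combination (-1.78). H3C12 overlaps H2AC17 on the same strand.

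Summed over the 59 genes, the histones held 8732 and 8874 CPM under decitabine and 3471 and 3764 CPM in the combination, and the mean sum fell by 58.9%. Under vehicle the sum was 9455 and 8504 CPM, and under talazoparib alone 6183 and 6278 CPM, where the mean sum fell by 30.6%. Vehicle and decitabine libraries overlapped, talazoparib lay below both, and the combination lay lowest. For 49 of the 59 genes every library followed this order, with both combination libraries below both talazoparib libraries and those below all 4 vehicle and decitabine libraries, as in 3.28% of all genes tested. In 55 genes both combination libraries were the lowest of the 8, as in 11.2% of all genes tested. Decitabine alone called 0 of the 59 (median -0.03; 122 genes were called in that comparison, 0.544% of genes), and talazoparib alone lowered 44 of 59 (median -0.56; 1.29% of all genes fell in that comparison). In RNA from a whole culture, fewer cells in S phase and less histone RNA per cell cannot be told apart.

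**Figure D2:**
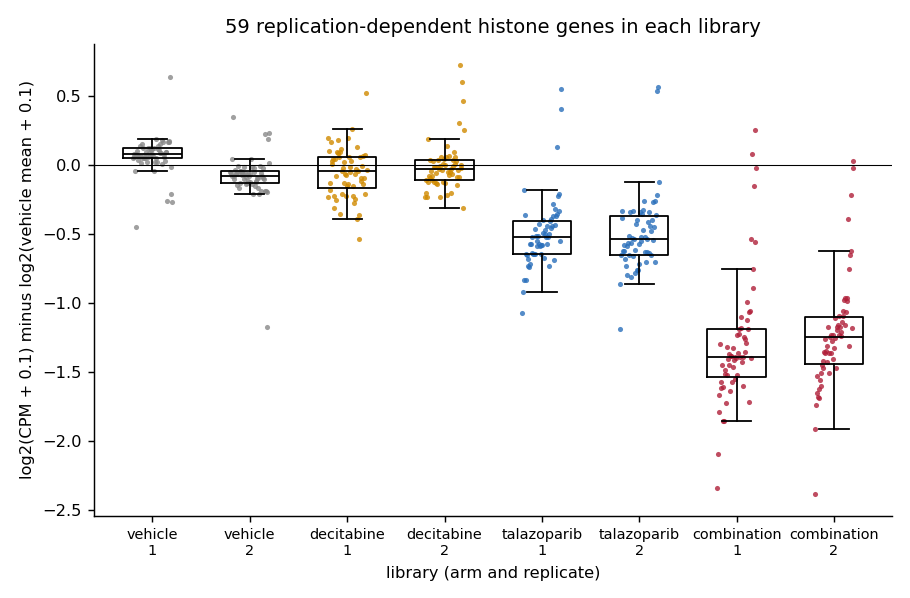
Levels of 59 replication-dependent histone genes in the 8 EGI-1 libraries, as log2(CPM + 0.1) minus the log2 of the gene's vehicle mean + 0.1; each point is a gene, and boxes give the quartiles and median over genes. Vehicle and decitabine libraries centre near 0, talazoparib libraries lie lower, and both combination libraries are the lowest.

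Genes that handle histones did not move in this way. The 14 genes of histone pre-mRNA processing (the factors that cut the stem-loop end) had 0 calls in edgeR's test (2 at an unadjusted p under 0.05, and 0 with DESeq2), a median of -0.03 and a range of -0.17 to 0.27 on the log2 scale. Of 15 histone chaperones tested, 4 fell, among them SSRP1, a subunit of the FACT complex, from 554 and 546 CPM to 454 and 453 CPM (-0.28, adjusted p = 0.00197). Of 12 replacement histones, a class whose messages are not confined to S phase, 4 fell. H2AX, the variant phosphorylated at DNA breaks, went from 739 and 845 CPM to 670.3 and 663 CPM (-0.25, adjusted p = 0.0258), a call that was lost without combination replicate 1 (adjusted p = 0.121), combination replicate 2 (0.154), decitabine replicate 2 (0.159) or either vehicle library (0.0751 and 0.074). The other RNAs without a poly(A) tail on the list, 12 short RNA genes, had 0 calls in edgeR's test (1 at an unadjusted p under 0.05, and 0 with DESeq2) and a median of -0.32. In the same direction but with wide spread were the 15 mitochondrially encoded genes (0 calls in edgeR's test, 0 at an unadjusted p under 0.05 and 0 with DESeq2, median -0.34), whose summed level was 21075 and 14631 CPM in the decitabine libraries and 13604 and 14022 CPM in the combination. Of 78 cytosolic ribosomal protein genes, 1 (RPS27) was called, but not without combination replicate 1 (adjusted p = 0.213), combination replicate 2 (0.0759), decitabine replicate 1 (0.234) or either vehicle library (0.0798 and 0.0797).

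Fewer genes of DNA replication fell, and by less. Of 58 tested, 15 fell and 0 rose, 18 had values above 0, and the median was -0.11. MCM6, a subunit of the replicative helicase, had 177 and 170 CPM under decitabine and 107 and 102 CPM in the combination (-0.73, SE 0.06, adjusted p = 4.53e-07). MCM5, of the same helicase, went from 236 and 245 CPM to 160 and 155 CPM (-0.61), and PCNA, the sliding clamp, from 241 and 247 CPM to 162.2 and 167.6 CPM (-0.56). For all 3 genes the libraries of the arms were far apart. Of 67 mitosis genes, 4 fell and 1 rose, a share of 7.46% called, close to the 7.68% over all genes. MKI67, the proliferation marker, stood at 1091 and 950 CPM under decitabine and at 785 and 768 CPM in the combination (-0.39, adjusted p = 0.000581). Of 27 genes of the E2F, RB and cyclin-CDK list, 3 rose (CDK2, 0.45; CCND3, 0.46; CDC25A, 0.39) and 4 fell.

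A few targets of p53 rose, p21 among them. CDKN1A, which encodes the CDK inhibitor p21, rose from 103 and 85.8 CPM to 149 and 147 CPM, a 1.57-fold change (log2 0.65, SE 0.07, adjusted p = 2.40e-05). Of 44 p53 targets tested, 6 rose and 0 fell, and the median was 0.08. GADD45A, a stress sensor, went from 18.2 and 17.5 CPM to 26.4 and 26.7 CPM (0.58), and AEN, a nuclease, from 53.3 and 53.3 CPM to 71.3 and 77.3 CPM (0.48). Of 26 checkpoint genes, 2 rose and 4 fell. Among them WEE1, the kinase that restrains CDK1, fell from 146 and 155 CPM to 108 and 103 CPM (-0.52, adjusted p = 6.35e-05). CDKN2C, the CDK inhibitor p18, also fell (-0.60, adjusted p = 0.0131), from 10.2 and 13.4 CPM to 7.55 and 7.93 CPM, a call that was lost without combination replicate 1 (adjusted p = 0.0875), combination replicate 2 (0.0714) or decitabine replicate 2 (0.109). CDKN1A overlaps an antisense gene, and the strand setting of the counting is not stated.

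Lamin B1 and some chromatin proteins of the nucleus fell. Of 15 genes of the lamin and high-mobility list, 6 fell and 0 rose (median -0.21). LMNB1 stood at 235 and 237 CPM under decitabine and at 167.02 and 173.1 CPM in the combination (-0.47, SE 0.06, adjusted p = 2.91e-05). HMGB2, a chromatin protein of dividing cells, went from 72.8 and 64.5 CPM to 52.1 and 46.3 CPM (-0.48), and EZH2, the Polycomb methyltransferase, from 52.9 and 49.2 CPM to 38.2 and 39.6 CPM (-0.39). In these 3 genes the arms did not overlap.

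For the targets of the drugs themselves no change in RNA passed the test. PARP1 had 286 and 268 CPM under decitabine and 269 and 265 CPM in the combination (log2 change -0.05, SE 0.06, adjusted p = 0.648). PARP2 had 35.7 and 33.5 CPM and then 26.9 and 30.9 CPM (-0.26, adjusted p = 0.0919). DNMT1, the maintenance methyltransferase, had 427 and 457 CPM and then 435 and 421 CPM (-0.05, adjusted p = 0.698), and neither DNMT3A (0.15) nor DNMT3B (0.16) was called. Of 15 genes of the DNA methylation machinery, 3 fell. These were UHRF1, the partner that brings DNMT1 to replicated DNA (-0.29, adjusted p = 0.00371), HELLS, a chromatin remodeller (-0.28), and TET2, a methylcytosine oxidase (-0.35). Without combination replicate 2 neither UHRF1 (adjusted p = 0.0724) nor HELLS (0.126) was called. HELLS (adjusted p = 0.0739) and TET2 (0.299) were not called without combination replicate 1, nor without decitabine replicate 1 (0.112 and 0.119) or either vehicle library (0.0508 to 0.0647). Of 36 genes of the PARP family and base excision repair, 4 fell. UNG, the uracil glycosylase, went from 60.3 and 63.1 CPM to 44.8 and 45.8 CPM (-0.45, adjusted p = 0.000494), and LIG3, a DNA ligase, from 96.8 and 88.6 CPM to 69.6 and 70.3 CPM (-0.41). Of 36 Fanconi and homologous recombination genes, 2 fell (FANCF, -0.54, and EXO1, -0.26) and 0 rose. The share called was 5.56%, while over all genes 7.68% were called in either direction and 3.26% fell. FANCF was not called without combination replicate 1 (adjusted p = 0.0837), and EXO1 was not called without combination replicate 1 (0.222), combination replicate 2 (0.0931), decitabine replicate 1 (0.083) or either vehicle library (0.0883 and 0.0905). FANCF overlaps GAS2 on the other strand.

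Secreted factors rose in part. Of 30 cytokine and chemokine genes tested, 7 rose and 2 fell, with a median of 0.27. IL11, an interleukin of the IL6 family, went from 14.3 and 15.5 CPM to 31.6 and 29.9 CPM (1.05, SE 0.11, adjusted p = 6.14e-06). CSF2, which encodes GM-CSF, went from 20.5 and 21.1 CPM to 35.8 and 39.0 CPM (0.85), and IL1RN, the receptor antagonist of interleukin 1, from 6.67 and 7.498 CPM to 14.4 and 13.4 CPM (0.97). IL6 itself had 2.68 and 3.44 CPM under decitabine and 4.81 and 4.21 CPM in the combination. The libraries did not overlap, but the log2 difference of 0.56 did not pass the test (SE 0.20, adjusted p = 0.101). Of 25 genes of the NF-kB list, 6 rose and 2 fell. Its feedback inhibitors went in opposite directions: NFKBIA fell from 149 and 180 CPM to 105 and 103 CPM (-0.67), and TNFAIP3 (A20) rose from 132 and 119 CPM to 180 and 188 CPM (0.55). DUSP5, a phosphatase that acts on ERK, rose among the AP-1 and early growth response genes (0.61), and PHLDA1 fell (-0.45).

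By the number of calls, interferon-stimulated genes were close to the background. Of 45 tested, 2 rose (4.42% of all genes rose) and 0 fell. The median was 0.16, against -0.01 over all genes. Values were above 0 in 33 of the 45, and in 10858 of all 22406 genes. In edgeR's test 13 of the 45 had an unadjusted p under 0.05, as did 4784 of all genes. STAT2, a transcription factor of the type I interferon response, went from 60.9 and 67.3 CPM to 86.1 and 81.0 CPM (0.38, adjusted p = 0.00217), and IFI6 from 4.13 and 4.17 CPM to 7.25 and 6.79 CPM (0.76, adjusted p = 0.00752, and 0.0542 without combination replicate 1). Of 18 nucleic acid sensors, 0 were called by edgeR's test (11 at an unadjusted p under 0.05) and 1 by DESeq2. Of 12 genes of MHC class I presentation, 1 (HLA-B) was called, with 0.14 and 0.27 CPM under decitabine and 0.77 and 1.93 CPM in the combination, and its log2 change of 2.73 became 1.90 without combination replicate 2 (adjusted p = 0.29). The call was also lost without either decitabine library (0.235 and 0.0871) or either talazoparib library (0.0686 and 0.0707). Among ligands of NKG2D and checkpoint receptors, 4 of 14 rose and 1 fell. TNFRSF14, the ligand of BTLA, was the one that fell, from 3.39 and 1.86 CPM to 0.3 and 0.793 CPM (-2.21, adjusted p = 0.00269, and -3.11 with an adjusted p of 0.00411 without combination replicate 2). ULBP2, an NKG2D ligand, went from 7.34 and 7.77 CPM to 13.81 and 13.03 CPM (0.83, adjusted p = 0.000329), and CD274, which encodes PD-L1, from 22.7 and 19.8 CPM to 29.2 and 30.9 CPM (0.50, adjusted p = 0.00574), a call that was lost without combination replicate 2 (adjusted p = 0.0677). Of 53 germline and cancer-testis genes, 12 passed the filter and 1 was called, lower (TUBA3D, -0.76), but not without combination replicate 1 (adjusted p = 0.114), combination replicate 2 (0.139) or decitabine replicate 1 (0.237). MICB stayed under 0.22 CPM in the 4 libraries, and MICA, SFRP1, SOX17 and UCHL1 had at most 4 counts in any EGI-1 library and were not tested.

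Some genes of the matrix and its turnover rose. PLAU, the urokinase-type plasminogen activator, went from 501 and 475 CPM to 695 and 715 CPM (0.53, adjusted p = 5.60e-06). SERPINB2 (PAI-2), whose promoter is shown above, had 181 and 117 CPM under decitabine and 349 and 391 CPM in the combination (1.32, adjusted p = 0.0408), and this call was lost with any library left out but the decitabine ones (adjusted p = 0.0925 to 0.166). In all, 5 of 13 plasminogen activation genes rose and 1 fell. Of 25 genes of the MMP, ADAMTS and TIMP families, 8 rose and 2 fell (median 0.42). MMP14, a membrane-bound collagenase, went from 153 and 156 CPM to 217 and 213 CPM (0.48), and ADAMTS15 from 15.2 and 16.3 CPM to 29.26 and 25.96 CPM (0.81). Collagen genes rose in 6 of 22 cases and fell in 0 (median 0.29), with COL6A2 at 5.89 and 5.76 CPM and then 10.00 and 10.4 CPM (0.81). Of 30 laminin, integrin and fibronectin genes, 6 rose and 1 fell. The laminin-332 chains LAMB3 (from 1039 and 1061 CPM to 1433 and 1408 CPM, 0.44) and LAMA3 (from 337 and 304 CPM to 429 and 444 CPM, 0.45) were among them.

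Of 22 target genes of YAP, the co-activator of the Hippo pathway, 7 rose and 0 fell (median 0.12). ANKRD1, a muscle-type ankyrin repeat protein widely used as a YAP readout, had 79.5 and 69.5 CPM under decitabine and 181 and 195 CPM in the combination (1.33, SE 0.08, adjusted p = 4.65e-09). THBS1, which encodes the matrix protein thrombospondin-1, went from 1570 and 1275 CPM to 3404 and 3613 CPM (1.30, adjusted p = 2.60e-07), and NUAK2, a kinase, from 33.1 and 32.4 CPM to 66.4 and 63.7 CPM (0.99). In these 3 genes the combination libraries were close to each other and well above both decitabine libraries. Of 33 TGF-beta and activin genes, 7 rose and 5 fell. TGFBR2, a receptor, rose from 261 and 240 CPM to 315 and 338 CPM (0.38), and NOG, the BMP antagonist noggin, from 21.7 and 25.7 CPM to 39.4 and 36.9 CPM (0.69). THBS1 and PLAU overlap exons of genes on the other strand.

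Epithelial and lineage genes changed in both directions. Of 16 keratins, 5 rose and 0 fell, with KRT17, a keratin of basal and stressed epithelium, at 19.9 and 19.5 CPM and then 38.4 and 36.8 CPM (0.93, adjusted p = 1.06e-05). Of 24 biliary and foregut genes, 2 rose and 4 fell. SOX9, a transcription factor of the bile duct lineage, rose from 189.6 and 202.7 CPM to 276 and 275 CPM (0.49), and ONECUT2 fell from 148 and 143 CPM to 108 and 104 CPM (-0.46). Of 30 Hedgehog and Wnt genes, 4 rose and 2 fell. SHH, the Hedgehog ligand, fell from 12.98 and 16.43 CPM to 7.55 and 6.31 CPM (-1.09, adjusted p = 9.70e-05). Of 15 EGF ligands and ERBB receptors, 4 rose and 2 fell. TGFA rose (0.44) and HBEGF rose (0.51), while NRG1, the neuregulin ligand of ERBB3, fell (-0.62). Of 22 genes of the epithelial to mesenchymal state, 2 fell, ELF3 (-0.59) and S100A4 (-0.36). The call of S100A4 was lost with any library left out but decitabine replicate 1 (adjusted p = 0.11 to 0.288). HES1, a Notch target, rose (0.44), and of 15 Notch genes 3 rose and 1 fell.

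Lists of metabolic genes had calls in both directions. Of 33 genes of cholesterol and fatty acid synthesis, 14 rose and 2 fell (median 0.29). HMGCS1, the enzyme before HMG-CoA reductase, went from 137 and 118 CPM to 187 and 198 CPM (0.59, adjusted p = 3.28e-05), MSMO1, a sterol demethylase, from 31.3 and 31.0 CPM to 46.8 and 58.0 CPM (0.75), and ACLY, which makes cytosolic acetyl-CoA, from 541 and 523 CPM to 686 and 683 CPM (0.36). Of 22 genes of the NRF2 and metallothionein list, 11 fell and 1 rose (median -0.21). FTL, the ferritin light chain, fell from 1361 and 1293 CPM to 958 and 980 CPM (-0.45, adjusted p = 1.80e-05), and NQO1, a quinone reductase, from 227 and 231 CPM to 162.99 and 165.9 CPM (-0.48). SLC7A11, the cystine transporter, fell from 60.5 and 52.8 CPM to 28.5 and 33.2 CPM (-0.87, adjusted p = 1.05e-05), and PHGDH, the first enzyme of serine synthesis, fell as well (-0.43). In that list of ATF4 and serine synthesis genes, 7 of 29 fell and 2 rose. Of 34 hypoxia and glycolysis genes, 8 fell and 2 rose, among them VEGFA from 232 and 266 CPM to 174 and 158 CPM (-0.58), PKM (-0.40) and LDHA (-0.36).

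Other lists held 1 to 6 calls each. Of 43 autophagy and lysosome genes, 6 rose and 0 fell, among them NPC1 (0.36) and GABARAPL1 (0.46; adjusted p = 0.0526 without combination replicate 1). BAK1, a pro-apoptotic member of the BCL2 family, rose from 66.7 and 73.9 CPM to 94.6 and 92.1 CPM (0.41), and BMF fell (-0.53), the only 2 calls of 15 tested. BMF was not called without combination replicate 1 (adjusted p = 0.0909), combination replicate 2 (0.216), decitabine replicate 2 (0.155) or either vehicle library (0.0645 and 0.0672), nor with DESeq2. ABCC3, a bile salt and drug exporter, fell from 147.8 and 166.6 CPM to 105 and 95.8 CPM (-0.65, adjusted p = 2.30e-05), the only call among 18 transporters for drugs and nucleosides. IGFBP7, a secreted binding protein, rose from 3.85 and 5.30 CPM to 9.05 and 9.07 CPM (0.99), and of 9 genes in that list 2 rose and 2 fell. Among 32 neuronal adhesion and guidance genes 4 rose and 2 fell, with NRP2, a receptor for semaphorins and VEGF, at 85.2 and 83.9 CPM and then 51.0 and 49.9 CPM (-0.75). KCNQ1OT1 was the only call among 9 long nuclear RNAs (-0.40), a call that was lost without combination replicate 2 (-0.26, adjusted p = 0.17), and the gene it overlaps on the other strand is KCNQ1.

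The genes with the largest changes among better expressed genes, with histones left aside, follow. L1CAM, a neural cell adhesion molecule, had 2.47 and 2.47 CPM under decitabine and 8.32 and 7.62 CPM in the combination, a 3.22-fold rise (log2 1.69, SE 0.18, adjusted p = 1.16e-05). AZGP1, a secreted zinc-binding glycoprotein, went from 2.79 and 3.56 CPM to 9.91 and 9.69 CPM (1.63). SERPINB7 went from 11.7 and 9.47 CPM to 26.1 and 30.1 CPM (1.41), PNMA2 from 5.33 and 5.02 CPM to 12.4 and 14.9 CPM (1.40), ADGRF5, an adhesion receptor, from 3.67 and 2.09 CPM to 8.49 and 6.62 CPM (1.38), SUSD3 from 2.58 and 1.78 CPM to 5.62 and 5.48 CPM (1.34), and SEZ6L2 from 4.37 and 3.87 CPM to 10.9 and 9.59 CPM (1.31). In these 7 genes the combination libraries were close to each other. L1CAM shares exon sequence with an antisense gene, as do MYB, MUC5B, WIPF1, KRT17, SLC7A11, NQO1 and VEGFA elsewhere in these results, and PNMA2 overlaps exons of BNIP3L and DPYSL2 on the other strand.

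Other risers of the same size were uneven between the combination libraries. WIPF1, an actin regulator that binds the WASP protein of blood cells, had 2.93 and 2.55 CPM under decitabine and 5.71 and 11.1 CPM in the combination (1.62). JAK3, the kinase of the common gamma chain receptors of lymphocytes, had 2.26 and 2.09 CPM and then 4.25 and 8.10 CPM (1.52), and GVINP1, a pseudogene, had 1.55 and 1.43 CPM and then 2.62 and 4.9998 CPM (1.36). In all 3, the higher value was in the library with T lymphocyte transcripts, and the value in replicate 1 was still above both decitabine libraries. Without combination replicate 2 the log2 change was 1.06 for WIPF1 (adjusted p = 0.035, and 0.0762 and 0.0747 without a decitabine library), 0.97 for JAK3 (adjusted p = 0.071) and 0.81 for GVINP1 (adjusted p = 0.15).

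Among the genes that fell most, receptors and mucosal products stood at low counts. FFAR4, a receptor for long-chain fatty acids, went from 4.30 and 6.80 CPM to 1.80 and 2.21 CPM (-1.45, SE 0.22, adjusted p = 0.000359), and LGR6, a receptor for R-spondins that amplifies Wnt signals, from 5.61 and 8.89 CPM to 3.003 and 2.414 CPM (-1.42). The kinase MAP2K6, which activates p38, went from 10.6 and 14.5 CPM to 5.15 and 5.28 CPM (-1.26), and the transcription factor MYB from 4.41 and 3.56 CPM to 1.20 and 2.10 CPM (-1.25). The gel-forming mucins MUC5AC (18.3 and 30.6 CPM, then 11.7 and 9.38 CPM, -1.22) and MUC5B (4.66 and 7.11 CPM, then 2.87 and 2.14 CPM, -1.24) varied between the decitabine libraries, and neither was called without combination replicate 2 (adjusted p = 0.207 and 0.0809). MUC5AC was not called either without combination replicate 1 (0.123) or any vehicle or talazoparib library (0.101 to 0.105). The aldo-keto reductases AKR1C2 (7.76 and 12.3 CPM, then 3.95 and 4.69 CPM, -1.21) and AKR1C1 (4.13 and 5.14 CPM, then 1.97 and 2.07 CPM, -1.19) and the aldehyde dehydrogenase ALDH3A1 (-1.25) are detoxifying enzymes. AKR1C1 and AKR1C2 are near-identical, so the split of their reads is uncertain. PCDHB12 (-1.24), CRIP2 (-1.18) and NAALADL2 (-1.11) complete the set, and CRIP2 and ALDH3A1 were not called without combination replicate 2 (adjusted p = 0.147 and 0.0582), nor was CRIP2 without decitabine replicate 2 (0.0588).

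**Figure D3:**
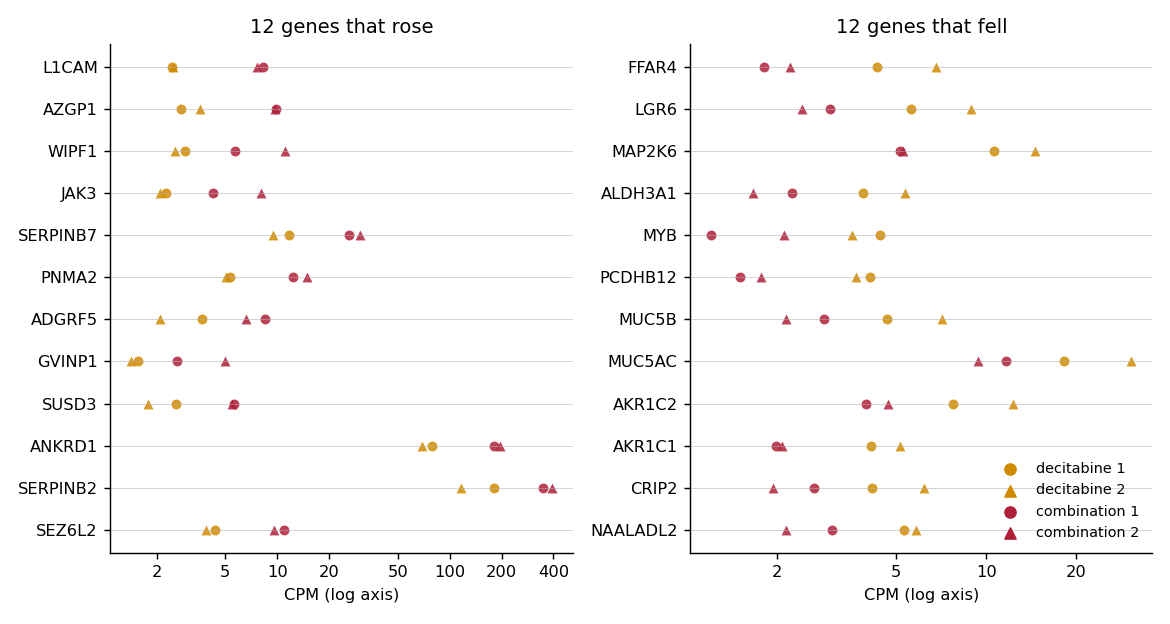
Levels in CPM (log axis) of the 12 genes that rose most (left) and the 12 that fell most (right), histones left out, in the 2 decitabine libraries (orange) and the 2 combination libraries (red); circles are replicate 1 and triangles replicate 2. Only genes whose groups do not overlap were eligible, and WIPF1, JAK3 and GVINP1 are higher in combination replicate 2.

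Whether talazoparib acted differently in the presence of decitabine was asked with the interaction term of the same model, which compares combination over decitabine with talazoparib over vehicle. Talazoparib alone moved 923 genes (4.12%), of which 635 rose (2.83%) and 288 fell (1.29%). This count ranged from 247 without vehicle replicate 1 and 276 without vehicle replicate 2 to 1663 without decitabine replicate 1 and 1657 without decitabine replicate 2, and it was 416 and 500 without talazoparib replicate 1 and 2, so the overlaps that follow rest on it. The comparisons share no library. Of the 1720 genes called with decitabine present, 1682 had the same sign without it, and 691 were called in both, 689 of them in the same direction. The relative size of the effects depended on which comparison chose the genes, so the medians are a description. With histones left out, the 990 genes that rose with decitabine present had a median of 0.44 with it and 0.34 without, and the 678 that fell had -0.40 and -0.23. The 635 that rose under talazoparib alone had 0.42 with decitabine and 0.47 without, and the 244 that fell had -0.43 and -0.42. Those called in both had 0.49 and 0.48 (472 that rose) and -0.46 and -0.40 (175 that fell). The interaction itself was called for 36 genes (0.161%), at an unadjusted p under 0.05 for 757, and 32 of the 36 were replication-dependent histones that fell further when decitabine was present.

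The histone departure was one of degree. All 59 tested members had a negative interaction term, with a median of -0.76, and the called members were 4 H1, 8 H2A, 13 H2B, 4 H3 and 3 H4 genes. H2BC18 had 237 and 213 CPM under vehicle, 252 and 207 CPM under decitabine, 144 and 146 CPM under talazoparib and 73.3 and 70.0 CPM in the combination, so its fall of 0.63 on the log2 scale without decitabine became one of 1.68 with it. H1-5 had 487 and 480 CPM under vehicle, 456 and 493 CPM under decitabine, 325 and 326 CPM under talazoparib and 172 and 174 CPM in the combination. Vehicle and decitabine libraries were alike in both genes, and the drugs together gave the lowest values. In the replication genes, 0 of 58 had a called interaction, although 15 fell with decitabine present and 11 without. With 1 library left out at a time, 27 to 85 genes had a called interaction, and 20 to 36 of these were histones.

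Outside the histones, 4 genes had a called interaction. FST, which encodes the activin antagonist follistatin, had 31.6 and 32.2 CPM under vehicle, 46.2 and 48.0 CPM under decitabine, 76.8 and 76.3 CPM under talazoparib and 65.3 and 67.8 CPM in the combination. Each drug alone raised it, and the addition of talazoparib gave 0.50 on the log2 scale over decitabine against 1.26 over vehicle (interaction -0.76, SE 0.10, adjusted p = 0.000645). IRF7, a transcription factor that induces type I interferons, had 1.42 and 0.796 CPM under vehicle, 1.52 and 1.55 CPM under decitabine, 6.67 and 5.41 CPM under talazoparib and 0.815 and 1.66 CPM in the combination. It rose under talazoparib alone (2.43) and did not pass the test on top of decitabine (-0.28, adjusted p = 0.688), with an interaction of -2.70 (SE 0.44, adjusted p = 0.00755). RGPD6, a nuclear pore gene of a duplicated family, had 5.75 and 3.71 CPM under vehicle, 0.670 and 0.464 CPM under decitabine, 0.603 and 0.605 CPM under talazoparib and 2.96 and 1.34 CPM in the combination (interaction 4.85, adjusted p = 0.000312). Either drug alone lowered it, and the combination lay between. The pseudogene SPCS2P4 had the same order, with 17.6 and 12.05 CPM under vehicle, 8.28 and 8.14 CPM in the combination and 3.14 to 5.33 CPM under the single drugs (interaction 2.74, adjusted p = 0.0086). Both genes have near-identical copies elsewhere in the genome, so their counts are uncertain. Over decitabine, SPCS2P4 rose by 0.96 on the log2 scale, and by 0.98 without combination replicate 2. The call of this rise was lost there, and also without combination replicate 1, decitabine replicate 1 or either talazoparib library.

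**Figure D4:**
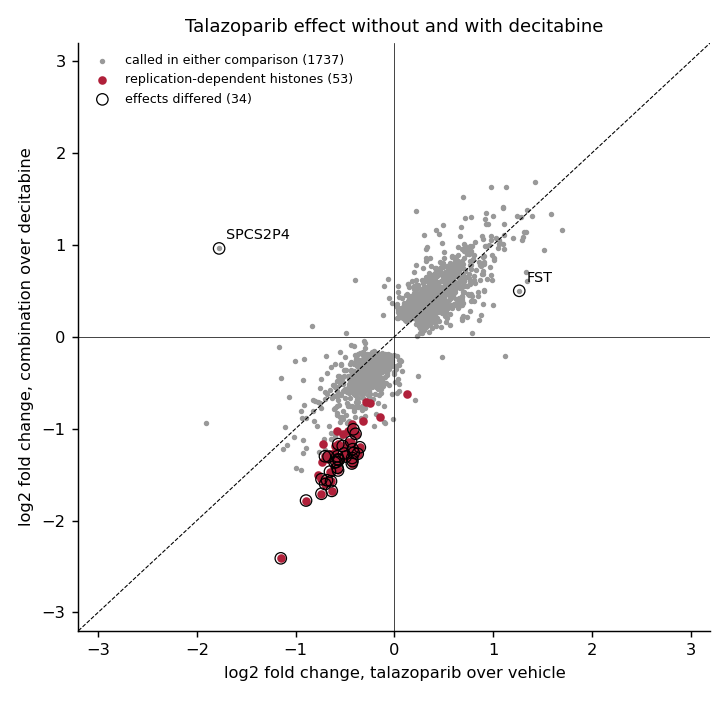
Log2 fold change of talazoparib over vehicle (horizontal) against that of the combination over decitabine (vertical) for 1737 genes called in either comparison (grey) and 53 histones (red), all at a mean log2 CPM of 1 or more; the dashed line marks equal effects. Open circles mark the 34 genes of this level whose effects differed, of which 32 are histones below the line.

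The annotation of the called genes is given as a description. The 990 that rose were protein coding in 95.5% of cases, with a median GC content of 54.4% in each gene's longest transcript. The median total length of a gene's merged exons was 4903 bases, and the median gene span was 25993 bases. The 678 that fell, histones left out, were protein coding in 89.8%, with 46.3% GC, 6522.5 bases of exon and a span of 41682.5 bases. All genes tested had 61.4%, 47.6%, 3523 bases and 16857.5 bases. Longer genes gather more counts and are called at smaller changes, and that part was not tested.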

How the data were processed

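RNA of EGI-1 cells was sequenced, and the deposited table of the authors holds whole-number read counts per Ensembl gene, with no normalization. Per the labels, the submitters' processing notes name fastp, Trim Galore, HISAT2, featureCounts and GRCh38, whereas the methods of the study name fastp, STAR and RSEM, so the aligner and counter are uncertain, as is the extraction (TRIzol in the labels). The methods name a strand-specific total RNA kit (TruSeq Stranded with Ribo-Zero Gold). The strand setting of the counting step, the treatment of multiply mapped reads and the annotation are not given in the sources used here. The 4 HUCCT1 libraries of the table were not used here.

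Of 60651 identifiers, 60437 matched GENCODE 44 for names and features. Genes were kept by filterByExpr of edgeR 4.0.16 (R 4.3.3), leaving 22406, and scaled by TMM (factors 0.990 to 1.01). A model with 1 term per arm was fitted over the 8 EGI-1 libraries by robust quasi-likelihood and tested two-sided with Benjamini-Hochberg adjustment at 0.05. The procedure was tested on simulated data. Gene levels are TMM-scaled CPM, and sums over markers are CPM of the unscaled library total. The SE of a log2 change is its size divided by the square root of F. The 2 libraries of each arm differed by more than sampling noise, so none was counted as a duplicate. The decitabine libraries were the least alike, with a mean chi-square per gene of 9.90. It was 4.96 for talazoparib, 4.19 for the combination and 2.67 for vehicle. The libraries held 23139065 to 33181930 counts, and counting error weighs most on genes of low count.

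Genes were named by rule: the 12 top risers and 12 top fallers by log2 change among called genes whose libraries did not overlap and whose average log2 CPM was 1 or more (histones apart), the 3 members of each list with the smallest p, the genes the study followed up, and the genes with a called interaction. The genes compared and the lists were chosen with earlier results of these data known. The T lymphocyte list and the motifs ATTTGCAT and AAACACA were chosen after values were seen. Alternatives were DESeq2 1.42.0, other scaling factors, other filters, fits of the compared arms alone, replicate blocks and leaving out each library.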

Additional observations from a re-analysis of the deposited data

Results flagged for a closer look

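The effect of talazoparib differed with and without decitabine, by the interaction term of the model, in 36 genes, and 32 of these were replication-dependent histone genes, which fell further with decitabine present. The others were FST, with an interaction of -0.76 on the log2 scale, IRF7 with -2.70, RGPD6 with 4.85 and SPCS2P4 with 2.74. Depending on the library left out, the count was 27 to 85 genes, of which 20 to 36 were histones.

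A signal outside the comparisons was found in combination replicate 2, where 30 T lymphocyte genes summed to 211 CPM. In the other 7 libraries this sum was 69.4 to 96.3, most of it from IL7R, TCF7, BCL11B and LCK, which had at least 68 counts in every EGI-1 library. Among the 990 genes that rose, 27 were more than 1.5 times higher in this library than in combination replicate 1. WIPF1, JAK3 and GVINP1 were among these 27. By the same factor 5 were lower, and the median ratio of the 990 was 0.988. Epithelial markers summed to 9852 CPM in this library and to 9106 to 10091 in the others. The source of these transcripts was not tested.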

How the results depend on the processing

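Of 147 named genes that were called, 107 stayed past the threshold under every alternative, and of their 2498 values under the alternatives 142 were not past it and 0 changed sign. Of the named genes that were not called, DNMT1 changed sign (main value -0.05, and -0.0956 to 0.0102 with 1 library left out), as did MICB (main value 0.38), whose values with 1 library left out ran from -4.12 to 1.49. The median of the histone genes stayed between -1.37 and -1.24. Of 884 list medians under the alternatives, 862 kept their sign and 61 moved by more than the spread of the library pairs. The 1720 calls of the combination against decitabine became 963 with only the libraries of the arms compared, 1227 with a replicate block and 2305 without a filter on low counts, and 853 to 2544 with 1 library left out (853 without combination replicate 2 and 1105 without combination replicate 1). The 36 interactions became 71 without the filter, 33 with the replicate block and 27 to 85 with 1 library left out (85 without decitabine replicate 1). Talazoparib against vehicle, 923 calls, gave 1851 with only the arms compared, 656 with the replicate block and 247 to 1663 with 1 library left out. Decitabine against vehicle, 122 calls, gave 335 without the filter, 43 with only the arms compared, 60 with the replicate block, 75 with a block by the series in the library names and 22 to 417 with 1 library left out. The title numbers did not pair the samples, since same-numbered libraries deviated together in some arms (r of 0.20 for talazoparib with combination) and oppositely in others (-0.18 for decitabine with combination and -0.27 for decitabine with talazoparib). A block with the decitabine numbers crossed, chosen after seeing the data, gave 2643, 1523 and 301 calls for the combination, talazoparib and decitabine comparisons. The cause of these shifts was not tested.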
